A study of Mus musculus with 22 samples.

Results

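The genes described here encode the proteasome, with its activators, inhibitor and assembly factors. They were chosen by name, as the protein-coding genes of the bulk RNA table whose symbol begins with Psm, a letter from a to g and a digit. The rule found 50 of 52459 listed genes, of which 21926 are protein-coding. Another 4 matching names are pseudogenes and were left out; their bulk counts summed over all libraries were 0, 0, 3 and 6. The 5 immunoproteasome genes Psmb8, Psmb9, Psmb10, Psme1 and Psme2 were set beside the other 45. The rule also takes in Psmc3ip, a recombination factor that is no proteasome subunit, and Psme2b, named as a copy of Psme2. How reads that fit both Psme2 and Psme2b were counted is not given in the sources used here, so the values of this pair are uncertain.

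The proteasome is the barrel-shaped protease that degrades proteins tagged with ubiquitin. Rings of alpha subunits (Psma genes) gate the barrel and rings of beta subunits (Psmb genes) hold the active sites, while a regulatory particle of ATPases (Psmc genes) and other subunits (Psmd genes) binds, unfolds and feeds in the substrate. Interferons induce the alternative catalytic subunits Psmb8, Psmb9 and Psmb10, which take the places of Psmb5, Psmb6 and Psmb7 in newly built particles, and Psme1 and Psme2, which form the PA28 activator. The resulting immunoproteasome favours peptides that fit MHC class I molecules, and it is abundant in blood cells.

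The samples came from mouse fetal livers at E14.5 (E for embryonic day). The deficient animals (KO) were Vav-Cre Mettl3fl/fl and the controls (WT) Mettl3fl/fl without Vav-Cre, so the floxed alleles are common to both groups. Mettl3 is the methyltransferase that writes N6-methyladenosine into messenger RNA, and the Vav promoter drives Cre in blood cells, so that hepatocytes and other liver cells are expected to keep the gene. LSK cells, sorted as Lin-Sca-1+c-Kit+ and enriched for blood stem and progenitor cells, gave bulk RNA-seq (3 KO and 3 WT libraries), H3K4me3 CUT&RUN (2 and 2) and RNA-seq of single cells (2 and 2). From whole liver came RNA before (INPUT, 2 and 2) and after (J2, 2 and 2) pull-down with the J2 antibody, which recognises double-stranded RNA. In all there were 22 samples in 10 groups.

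Bulk libraries held 20088100 to 40641081 counts, H3K4me3 libraries 11508749 to 14451593 in the windows used, INPUT libraries 3100910 to 4120864, J2 libraries 3873688 to 5251496 and the kept single cells 7264127 to 11638238. Levels are given as CPM, counts scaled to a common library size. The 7 stem cell markers examined were all present in bulk LSK RNA, with sums of 586 to 674 CPM in KO and 853 to 1066 CPM in WT. Mettl3 itself was at 5.32 ± 1.10 CPM in bulk KO and 39.7 ± 5.67 CPM in bulk WT (SD, n = 3 and 3). In INPUT it was at 6.70 and 26.9 CPM in KO and 29.4 and 24.9 CPM in WT, so INPUT KO library 2 lay between the WT libraries. In the single-cell sums Mettl3 went against the labels, with 64.3 and 52.2 CPM in the libraries labelled KO and 36.3 and 33.3 CPM in those labelled WT; whether these reads lie in the deleted part of the gene is not given in the sources used here, so they check nothing. Both single-cell libraries labelled KO carried Xist (326 and 293 CPM) and no counts of the Y-linked genes examined, and both labelled WT the reverse, and there genotype cannot be told apart from sex. In bulk, the Y-linked genes were at 0, 43.1 and 36.1 CPM in KO and 155, 95.1 and 181 CPM in WT, without overlap. Xist was at 367, 272 and 300 CPM in bulk KO and 400, 196 and 0.148 CPM in bulk WT. Sex was thus uneven between the bulk genotypes too, and its part in the bulk results was not tested. Library pairs in the single-cell table shared 0 to 3 cell barcodes.

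Promoter windows from RefSeq (build GRCm38.p6, 250 bases before to 50 after the start) were found for 42 of the 50 genes. Shown here are those of Psmb5 and its replacement Psmb8, of Psmb9, and of Psme1, the gene that rose in whole liver. Capitals mark any match, on either strand, to the core of an interferon-stimulated response element (GAAA, any 2 bases, GAAA), to the gamma-activated site of interferon-responsive promoters (TTCNNNGAA), or to the antioxidant element (TGACNNNGC).
Psmb5 chr14:54617946-54618245, minus strand: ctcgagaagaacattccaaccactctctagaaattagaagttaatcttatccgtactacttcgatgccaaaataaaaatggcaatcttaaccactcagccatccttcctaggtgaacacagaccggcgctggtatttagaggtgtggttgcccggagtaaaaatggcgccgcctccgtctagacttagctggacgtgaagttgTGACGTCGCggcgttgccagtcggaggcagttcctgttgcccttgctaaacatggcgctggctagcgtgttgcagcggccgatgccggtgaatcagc
Psmb8 chr17:34197945-34198244, plus strand: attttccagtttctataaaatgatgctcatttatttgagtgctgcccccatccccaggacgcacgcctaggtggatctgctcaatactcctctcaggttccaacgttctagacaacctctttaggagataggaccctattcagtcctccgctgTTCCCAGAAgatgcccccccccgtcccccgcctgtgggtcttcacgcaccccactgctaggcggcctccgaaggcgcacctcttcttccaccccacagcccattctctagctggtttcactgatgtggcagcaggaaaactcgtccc
Psmb9 chr17:34187281-34187580, minus strand: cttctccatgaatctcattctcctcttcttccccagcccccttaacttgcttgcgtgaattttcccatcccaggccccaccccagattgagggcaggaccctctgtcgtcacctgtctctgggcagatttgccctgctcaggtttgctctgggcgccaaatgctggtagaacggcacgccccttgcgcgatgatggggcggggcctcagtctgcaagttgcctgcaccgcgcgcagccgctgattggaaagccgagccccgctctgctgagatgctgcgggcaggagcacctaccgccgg
Psme1 chr14:55578244-55578543, plus strand: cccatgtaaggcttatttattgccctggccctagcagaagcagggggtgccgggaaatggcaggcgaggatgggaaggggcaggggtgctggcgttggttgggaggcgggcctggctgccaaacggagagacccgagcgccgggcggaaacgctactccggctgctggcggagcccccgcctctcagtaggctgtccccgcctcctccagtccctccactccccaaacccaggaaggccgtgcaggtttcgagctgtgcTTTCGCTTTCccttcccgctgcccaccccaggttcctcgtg
The capitals mark an antioxidant element match in Psmb5 at positions -47 to -39 from the start, a gamma-activated site match in Psmb8 at -97 to -89, and a response element match in Psme1 at 10 to 19 after the start. Psmb9 held none of the 3 in this window. The response element core was in 5 of 42 genes (11.9%; Psmb3, Psmd4, Psmd9, Psme1 and Psmg4), against 3.44% of all 32851 windows. The gamma-activated site was in 3 of 42 (7.14%; Psmb8, Psmd2 and Psmg1), against 8.30%. The antioxidant element was in 6 of 42 (14.3%), with Psmb5, Psmb6, Psmc6, Psmd12, Psmd9 and Psme4 holding it, against 12.4%. These are matches of letters only. The 42 genes had 45 windows and a gene was counted if any of its windows matched. The background counts single windows, so the shares differ in unit.

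In bulk LSK RNA, proteasome genes rose or did not pass the test, and none fell. Of the 49 genes with enough counts to be tested, 17 were higher in KO and 0 lower at an adjusted p under 0.05 (edgeR quasi-likelihood test with Benjamini-Hochberg adjustment over all genes); 21.6% of all genes tested were called higher and 22.6% lower. Psmb11, a thymus subunit, had 1 count in all bulk libraries and was the gene not tested. The fold change was above 0 for 43 of the 49. Its median was 0.20 on the log2 scale, against -0.02 over all genes, and its range was -0.41 to 0.97. At an unadjusted p under 0.05, 21 were higher and 2 lower, beside 3634 higher and 3890 lower of all 14405 genes.

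The largest rise was that of Psmd7, the lid subunit that pairs with the deubiquitinase Psmd14. Its counts were 12944, 9833 and 11935 in KO and 5362, 6626 and 3958 in WT, or 355 ± 25.3 and 181 ± 13.9 CPM (SD, n = 3 and 3). Every KO library was above every WT library, and the fold change was 1.96 (log2 0.97 ± 0.08, SE; adjusted p = 5.3e-05). Psmg3, a chaperone of alpha ring assembly, stood at 27.8, 32.4 and 30.8 CPM in KO and 16.4, 18.8 and 20.9 CPM in WT. Psmd5, a chaperone of the ATPase base, stood at 160, 154 and 152 CPM against 101, 108 and 103 CPM. Neither gene's groups overlapped, and both rose, with log2 changes of 0.70 ± 0.11 (adjusted p = 0.0011) and 0.58 ± 0.06 (adjusted p = 1.6e-04). Psmd12, another lid subunit, rose by a log2 change of 0.49 ± 0.07 (adjusted p = 5.7e-04). The other 5 assembly chaperones did not pass the test, and Psmg1 had a change of -0.06.

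**Figure D1:**
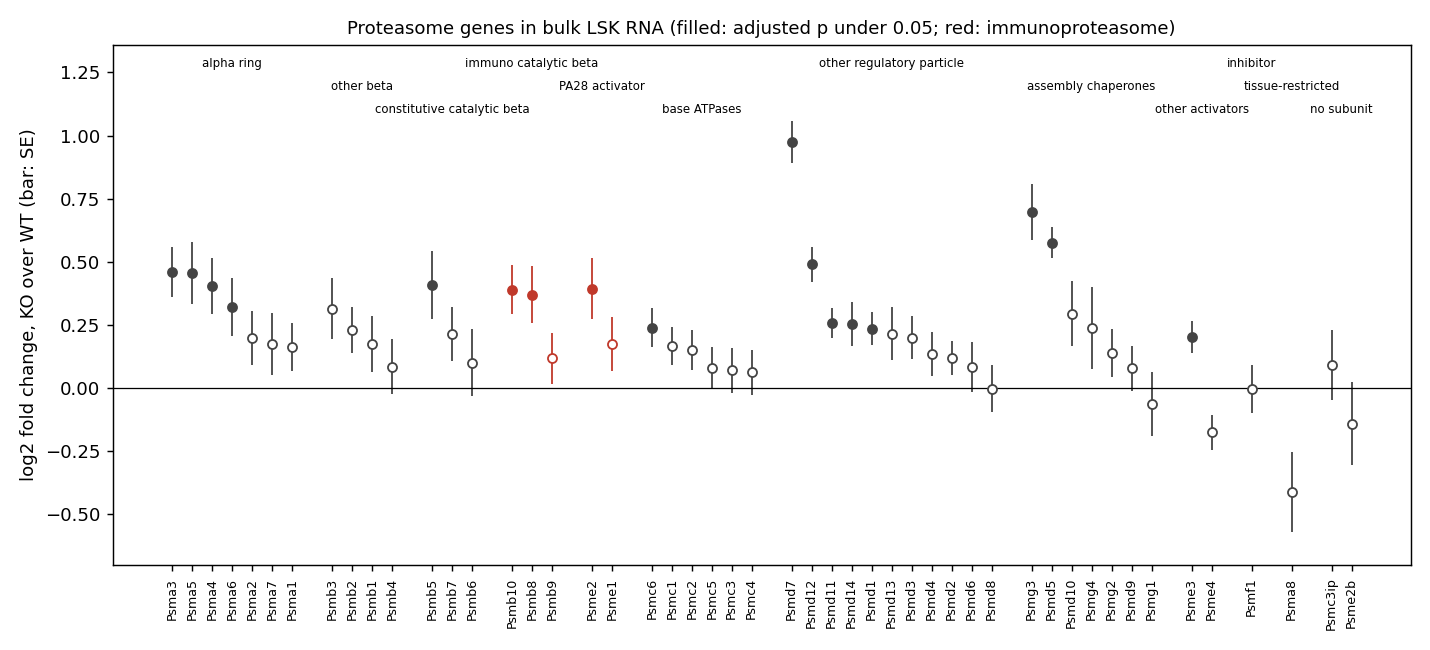
Log2 fold changes (KO over WT, vertical axis) of the 49 tested proteasome genes in bulk LSK RNA, grouped by role, with bars for the SE. Filled points passed an adjusted p of 0.05; Psmd7 stands highest at 0.97, and the 5 immunoproteasome genes in red lie between 0.12 and 0.39.

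Within the core particle, 4 of 7 alpha ring genes rose: Psma3 (log2 0.46 ± 0.10), Psma5 (0.46 ± 0.12), Psma4 (0.40 ± 0.11) and Psma6 (0.32 ± 0.11). Of the constitutive catalytic genes, Psmb5, the chymotrypsin-like subunit, rose by 0.41 ± 0.14 (adjusted p = 0.034), from 28.6, 35.7 and 40.8 CPM in WT to 40.5, 50.2 and 48.7 CPM in KO, with an overlap of 1 KO and 1 WT library. Psmb7 was at 0.21 ± 0.11 (adjusted p = 0.13) and Psmb6 at 0.10 ± 0.13 (adjusted p = 0.57). None of the other 4 beta genes passed the test. Of the ATPases 1 of 6 rose, Psmc6, and of the 11 other regulatory particle genes 5 rose, Psmd7, Psmd12, Psmd11, Psmd14 and Psmd1. Among the activators, Psme3, the nuclear PA28 form, rose by 0.20 ± 0.06, while Psme4, the PA200 activator, was at -0.17 ± 0.07 (adjusted p = 0.069). Psmf1, the inhibitor, was at 0.00 ± 0.10. Psma8, the testis alpha subunit, was at -0.41 ± 0.16 (adjusted p = 0.061), with 3.63 to 3.90 CPM in KO and 4.24 to 5.64 CPM in WT. Psmc3ip and Psme2b were at 0.09 and -0.14, with adjusted p of 0.62 and 0.52.

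Of the 5 immunoproteasome genes 3 rose, against 14 of 44 others tested, and their median change was 0.37 against 0.19. Psmb8 stood at 125, 157 and 152 CPM in KO and 96.6, 115 and 125 CPM in WT; the lowest KO library (125.2) was just above the highest WT library (124.6), and the log2 change was 0.37 ± 0.11 (adjusted p = 0.025). Psmb10 stood at 76.4, 90.9 and 87.2 CPM against 58.6, 63.3 and 72.5 CPM, without overlap (0.39 ± 0.10, adjusted p = 0.011). Psme2 stood at 110, 152 and 137 CPM against 89.8, 104.5 and 109 CPM (0.39 ± 0.12, adjusted p = 0.026). The remaining pair overlapped between groups. Psmb9 stood at 29.8, 35.9 and 35.7 CPM against 29.0, 33.1 and 31.4 CPM (0.12 ± 0.10, adjusted p = 0.37). Psme1 stood at 200.2, 253 and 234 CPM against 178, 209.7 and 221 CPM (0.18 ± 0.11, adjusted p = 0.21).

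The ratio of each inducible subunit to the one it replaces needs no scaling between libraries. The Psmb8 to Psmb5 count ratio was 3.09, 3.13 and 3.12 in bulk KO and 3.38, 3.21 and 3.05 in WT. The Psmb9 to Psmb6 ratio was 0.265, 0.241 and 0.252 against 0.269, 0.271 and 0.214. Both ratios overlapped between the genotypes (KO minus WT on the log2 scale -0.05 and 0.01; two-sided exact permutation p = 0.4 and 1). The Psmb10 to Psmb7 ratio was 0.432, 0.424 and 0.407 in KO and 0.379, 0.371 and 0.368 in WT, without overlap (0.18 on the log2 scale; exact p = 0.1, the smallest that 3 against 3 libraries allow; 0.3 adjusted over the 3 ratios). The 5 immunoproteasome genes together took 7.28% to 8.05% of all proteasome gene counts in KO and 7.06% to 7.65% in WT, ranges that overlap.

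The bulk counts depended on scaling and on single libraries. With library size alone as the scaling, 9 proteasome genes were called higher and 2 lower, while over all genes the split went from 3114 higher and 3253 lower to 2463 and 4143. Leaving out KO 1 or WT 3 gave 30 higher, KO 2 or WT 1 gave 11, KO 3 gave 10 and WT 2 gave 12; of all genes, 23.0% and 24.0% were called higher without KO 1 and WT 3, and 17.7% to 21.7% without the others. Psmb8 and Psme2 lost their calls with library size alone and without KO 2, KO 3 or WT 1. Called under all 11 alternatives were 9 of the 17: Psma3, Psma4, Psma5, Psmb10, Psmd5, Psmd7, Psmd11, Psmd12 and Psmg3. The summed level of 7 granulocyte markers was 3764 to 3828 CPM in KO and 1545 to 1697 CPM in WT with none at 0, and that of 7 dendritic markers 199.99 to 223 CPM against 458 to 554 CPM; their part in the result was not tested. In bulk samples, fewer cells of a type and less RNA per cell cannot be told apart.

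Genes that work with the proteasome were read from lists of fixed membership. Of 12 class I presentation genes, 11 rose in bulk LSK RNA and none fell (median 0.48). Nlrc5, the transactivator of class I genes and of Psmb9, rose by 1.64 ± 0.21, H2-K1 by 0.89 ± 0.12 and Calr by 0.87 ± 0.08. The peptide transporter genes Tap1 and Tap2 rose by 0.52 ± 0.08 and 0.23 ± 0.08; Tap1 starts 215 bases from Psmb9. Among regulators that link interferon to the inducible subunits, Irf7 (1.91 ± 0.17) and Irf9 (0.70 ± 0.07) rose, and Irf2 (-0.78 ± 0.08) and Jak2 (-0.40 ± 0.11) fell. Irf1, a direct activator of Psmb9, was at -0.03 ± 0.10 (adjusted p = 0.82). Of 12 genes for proteasome supply and partners, 3 rose and 2 fell, near the shares over all genes. Nfe2l2 rose by 0.67 ± 0.06 and Nfe2l1, which drives proteasome genes when the protease is inhibited, by 0.28 ± 0.06, while Ngly1, the glycanase that activates the Nfe2l1 protein, fell by 0.76 ± 0.08 on the log2 scale. Pomp, the maturation factor of the core particle, was at 0.01 ± 0.11 (adjusted p = 0.95). Among ubiquitin and shuttle genes, Ubqln4 (0.34 ± 0.07) and Ufd1 (0.27 ± 0.07) rose and Uba1 (-0.24 ± 0.08) fell.

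In whole-liver INPUT RNA, Psme1 was the only proteasome gene called, and it was higher in KO. Its counts were 469 and 619 in KO and 115 and 120 in WT, or 116 and 189 against 44.4 and 49.0 CPM. The groups were far apart, with a 3.27-fold difference (log2 1.71 ± 0.33, adjusted p = 0.035). Of all genes, 0.614% were called higher and 0.566% lower. The call was lost when INPUT KO 1, INPUT KO 2, INPUT WT 1 or J2 WT 2 was left out, and over all 13 alternatives the log2 change ran from 1.30 to 1.98 and the adjusted p from 6.7e-04 to 0.20. Psme1 overlaps Emc9 in the genome, and strand use in the counting is not given in the sources used here; Emc9 had 4 and 36 INPUT counts in KO and 14 and 33 in WT.

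The other immunoproteasome genes had few INPUT counts. Psmb8 had 159 and 81 counts in KO and 6 and 31 in WT, with no overlap (log2 2.10 ± 0.85, adjusted p = 0.24). Psmb9 had 37 and 38 counts in KO and 0 and 0 in WT, at least 8.72-fold higher when WT is set to a floor of 3 counts a library (adjusted p = 0.13); the floor covers counting error only. Psmb10 had 108 and 95 counts against 41 and 11 (1.45 ± 1.06, adjusted p = 0.51). Psme2 had 115 and 103 against 68 and 48 (0.39 ± 0.58, adjusted p = 0.79). Of the 5 genes, 1 thus passed the test, and these counts are not scaled to library size.

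**Figure D2:**
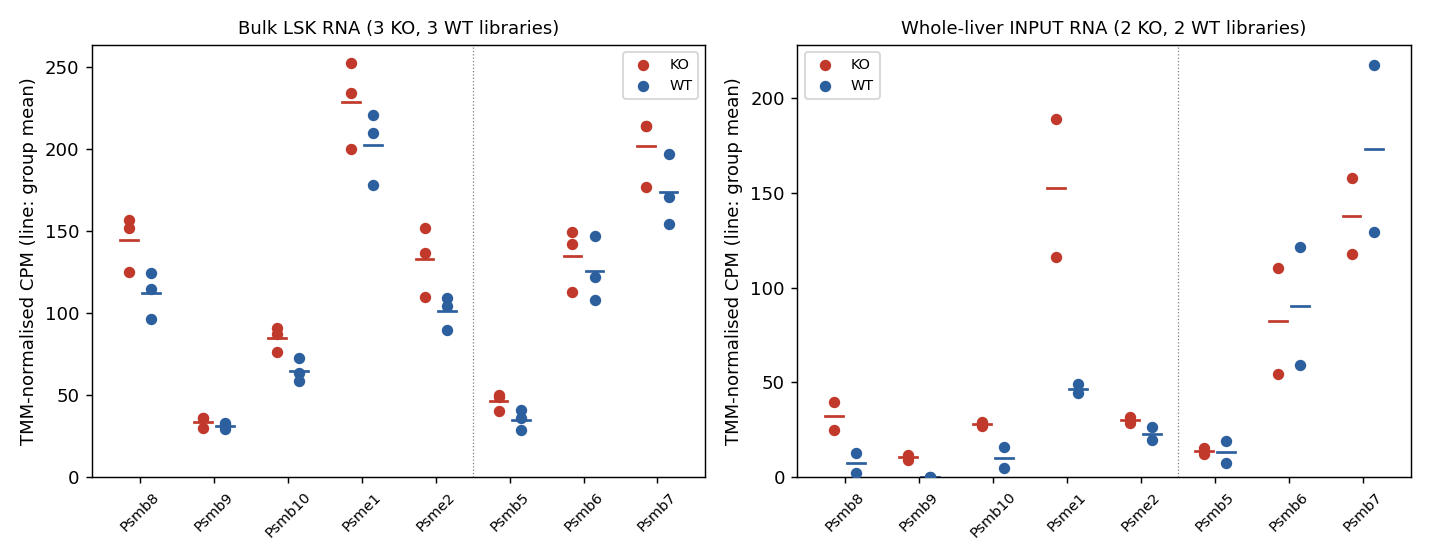
TMM-normalised CPM of the 5 immunoproteasome genes (left of the dotted line) and the 3 catalytic subunits they replace, 1 point a library with a line at the group mean, in bulk LSK RNA and in whole-liver INPUT RNA. In INPUT the Psme1 points of KO (116 and 189) lie above those of WT (44.4 and 49.0), and Psmb9 is at 0 in both WT libraries.

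No constitutive catalytic gene was called in INPUT liver RNA. Psmb5 had 50 and 50 INPUT counts in KO and 19 and 46 in WT, Psmb6 445 and 177 against 314 and 145, and Psmb7 475 and 516 against 563 and 316. Their log2 changes were 0.08, -0.13 and -0.33, with adjusted p of 0.98, 0.92 and 0.66. The median over the 44 other proteasome genes tested was 0.01 and none was called, against a median of 1.71 over the 5. The Psmb8 to Psmb5 ratio was 3.18 and 1.62 in KO and 0.316 and 0.674 in WT, and the Psmb10 to Psmb7 ratio 0.227 and 0.184 against 0.0728 and 0.0348. Neither ratio overlapped (log2 differences 2.30 and 2.02; exact permutation p = 0.333 each, the smallest that 2 against 2 allow). The 5 genes took 6.74% and 8.77% of proteasome gene counts in KO and 2.76% and 2.52% in WT. Whether the liver differs from LSK cells in this was not tested, since the tables were counted apart.

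**Figure D3:**
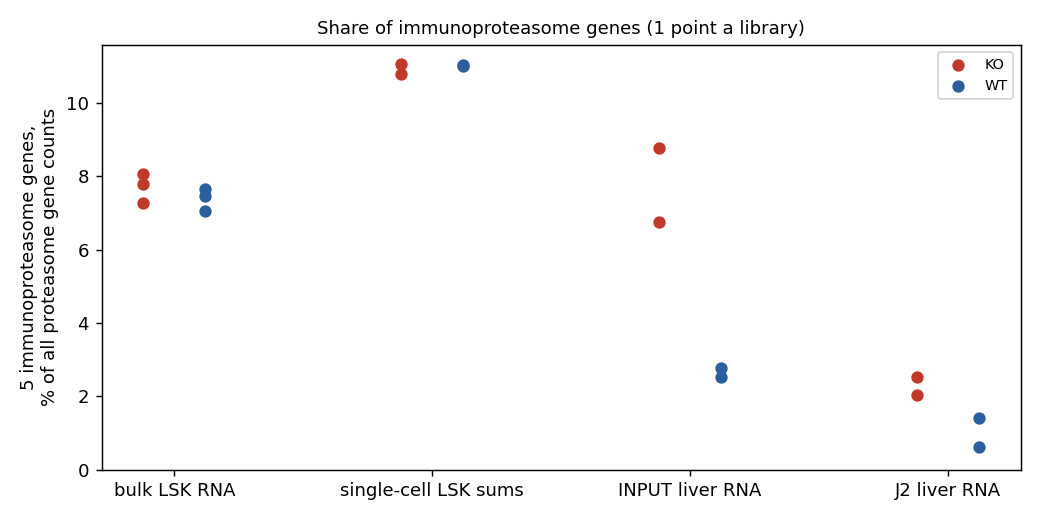
Share of the 5 immunoproteasome genes in the counts of all proteasome genes (vertical axis, percent), 1 point a library, for the 4 RNA readouts. KO and WT overlap in bulk LSK RNA, while in INPUT liver RNA KO (6.74% and 8.77%) lies above WT (2.76% and 2.52%).

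Other genes and cell markers moved in the same INPUT libraries. Of the 12 class I genes, B2m (log2 1.56 ± 0.29) and Tapbp (1.42 ± 0.23) rose, and Tap1, with 112 and 68 counts in KO and 4 and 11 in WT, had an adjusted p of 0.18. Irf7 and Irf9 rose by 4.83 ± 0.89 and 2.40 ± 0.37. The summed level of 9 macrophage markers, none at 0, was 477 to 535 CPM in KO and 225 to 229 CPM in WT (1 called higher, median log2 change 0.90). The 7 granulocyte markers summed to 605 to 651 CPM against 242 to 286 CPM (2 called higher, median 1.97), with Ms4a3 at 0 in WT. The 7 erythroid markers summed to 25177 to 30223 CPM against 15675 to 21069 CPM, although none of them was called higher, 1 was called lower and their median log2 change was -0.35. The 5 hepatocyte markers summed to 17591 to 18337 CPM against 9178 to 12084 CPM (2 called higher, median 0.76). None of the erythroid or hepatocyte markers was at 0, and the part of any of these cell types in the result was not tested. With library size alone, the median change of all INPUT genes went from 0.02 to 0.29 and the calls from 90 higher and 83 lower to 271 and 58, and 1 proteasome gene was called as before.

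J2-bound RNA held less of most proteasome transcripts than INPUT. In WT livers 28 of 49 genes were lower in J2 and 2 higher, against 10.7% lower and 13.2% higher among all genes. In KO livers 32 were lower and 2 higher, against 15.1% lower and 15.3% higher. The median log2 ratio of J2 over INPUT was -1.68 in WT and -1.85 in KO, against 0.10 and 0.04 over all genes. Psmc3, an ATPase of the base, had 338 and 373 INPUT counts and 76 and 82 J2 counts in WT, and 339 and 421 against 77 and 79 in KO. J2 was thus below INPUT in every library, with log2 ratios of -2.91 ± 0.31 in WT and -3.0 ± 0.32 in KO. Per the labels' protocols, INPUT and J2 RNA were taken from the same liver. With the animal as a block, 25 genes were lower in WT and 31 in KO. Fits without J2 WT 2, J2 KO 1 or J2 KO 2 left 1 library in a J2 group. They called fewer proteasome genes lower in that genotype, and also fewer of all genes. With library size alone, 22 were lower and 4 higher in WT and 27 and 2 in KO, while over all genes 1937 higher and 1566 lower became 2910 and 998 in WT and 2246 and 2216 became 2933 and 1730 in KO; the medians over all genes then were 0.52 and 0.33.

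By role, 6 of 7 alpha ring genes were lower in both genotypes, as were 5 of 6 ATPases, both PA28 genes, and 8 (WT) or 9 (KO) of the 11 other regulatory particle genes. In WT the largest falls after Psmc3 and the immunoproteasome genes were those of Psma4 (-2.63 ± 0.37), Psmc4 (-2.52 ± 0.45), Psmb6 (-2.36 ± 0.45), Psmc5 (-2.23 ± 0.48) and Psmc2 (-2.20 ± 0.33). In KO, with Psmc3 and the immunoproteasome genes left aside, the largest falls were those of Psmb5 (-3.22 ± 0.87), Psma7 (-3.10 ± 0.45), Psmc5 (-3.06 ± 0.50), Psmc3ip (-3.03 ± 0.59) and Psmb6 (-3.0 ± 0.46). Psmb5 had only 5 and 12 J2 counts in KO. None of the 7 assembly chaperones was called in either genotype; at an unadjusted p under 0.05, 1 was higher and 1 lower in WT and 1 lower in KO. Psmf1 was at 0.80 and 0.62, with adjusted p of 0.21 and 0.30.

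Among the immunoproteasome genes, Psme1 had 115 and 120 INPUT counts against 36 and 36 in J2 for WT, and 469 and 619 against 170 and 114 for KO. It was lower in J2 in both genotypes (-2.45 ± 0.36 and -2.67 ± 0.34). Psme2 was lower by the test at -1.93 ± 0.61 in WT and -2.24 ± 0.60 in KO, but the WT call was lost in 8 of 13 alternatives. Psmb8 had 6 and 31 INPUT counts against 4 and 1 in WT (-3.62 ± 1.02, adjusted p = 0.024) and 159 and 81 against 19 and 25 in KO (-3.09 ± 0.87, adjusted p = 0.019); with the animal as a block the WT value was -3.25 (adjusted p = 0.054). Psmb9 had 37 and 38 against 2 and 1 in KO (-5.20 ± 1.76, adjusted p = 0.046; with the block -5.21 and 0.073), and in WT 0 and 0 INPUT counts against 8 and 0, which allows no fold. Psmb10 had 108 and 95 against 22 and 19 in KO (-2.99 ± 1.11, adjusted p = 0.062; with the block -2.99 and 0.016), and in WT 41 and 11 against 46 and 1.

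Only Psma3 and Psme4 were higher in J2, in both genotypes. Psma3 had 183 and 280 INPUT counts against 1471 and 1341 in J2 for WT, and 159 and 301 against 1161 and 1086 for KO. J2 was above INPUT in each liver, at 3.59-fold in WT (1.84 ± 0.35) and 2.91-fold in KO (1.54 ± 0.35), and the call held under all 13 alternatives. Psma3 overlaps the noncoding gene 3110056K07Rik, and without strand the reads of the 2 cannot be told apart; that gene had 4 and 17 INPUT counts against 86 and 66 in J2 for WT and 17 and 26 against 95 and 123 for KO. Psme4 had 360 and 416 INPUT counts against 1301 and 1125 for WT and 596 and 299 against 2018 and 1687 for KO (0.89 ± 0.24 and 1.39 ± 0.24). Its WT call was lost in 3 of 13 alternatives, without INPUT WT 1, J2 WT 1 or J2 WT 2 (highest adjusted p = 0.076), and its KO call held in all 13. It overlaps Erlec1 and Gm12103.

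**Figure D4:**
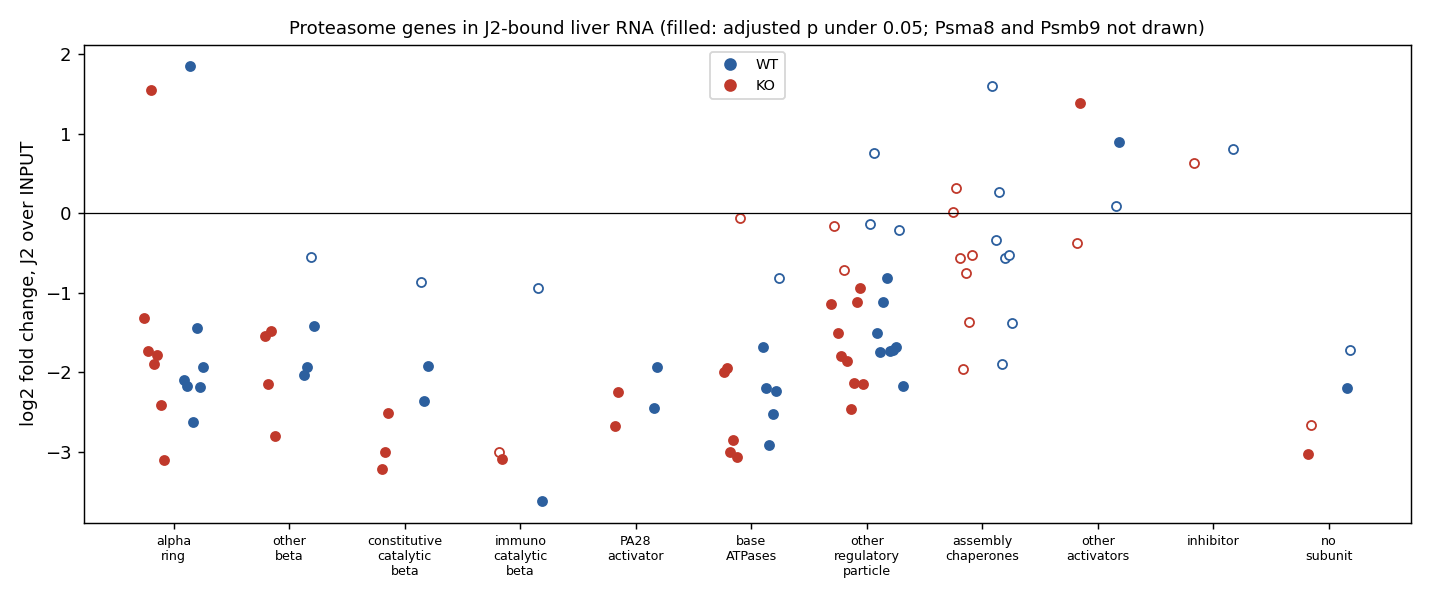
Log2 fold changes of J2 over INPUT (vertical axis) of proteasome genes in liver by role, WT in blue and KO in red, filled where the adjusted p was under 0.05. Psma8 and Psmb9, whose counts were near 0, are not drawn. Most points lie below 0; Psma3 (1.84 and 1.54) and Psme4 (0.89 and 1.39) are the filled points above it, and the assembly chaperones are all open.

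Psme4 is the longest of these genes in the genome, at 109.4 kb in RefSeq. Across the 49 genes, Spearman's rho between genomic length and the J2 over INPUT ratio was 0.37 in WT and 0.64 in KO; across 11917 protein-coding genes it was 0.32 and 0.40. The genes share their libraries and the lengths include introns, so these values are a description. The proteasome genes' median length was 11567 bases, against 25083 for all protein-coding genes with a length. The difference between the genotypes' J2 enrichments was tested itself and was called for no proteasome gene and for 0% of all 14657 genes by edgeR. At an unadjusted p under 0.05, 5 proteasome genes and 1340 of all genes passed; DESeq2 called 68 of all genes and no proteasome gene.

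At gene starts, H3K4me3, a histone mark of active promoters, gave no call for a proteasome gene. All 50 had a window, taken as the deposited 3 kb window with the highest mean count. Of these, 0 were called, against 7.88% of all windows (edgeR quasi-likelihood test). An unadjusted p under 0.05 was reached by 5, all higher, beside 5164 higher and 8995 lower of all 51039 windows. DESeq2 called 0, beside 826 of all windows. The median log2 change was 0.35, and 48 of 50 were above 0. Over all 51039 windows the median was -0.15, but over the 15960 whose average log2 CPM reached 4 it was 0.31, and the 47 proteasome windows among these had 0.36. The proteasome genes thus sat close to other strongly marked starts. Psmb10 had 94.2 and 79.9 CPM in KO and 67.4 and 51.9 CPM in WT (0.54 ± 0.23, adjusted p = 0.11), and Psmb5 54.1 and 46.9 against 38.0 and 31.8 CPM (0.53 ± 0.19, adjusted p = 0.065). Psmb8 had 70.9 and 61.1 against 56.8 and 41.6 CPM (0.42 ± 0.21, adjusted p = 0.18). Psmb9 had 76.0 and 64.6 against 63.7 and 47.6 CPM (0.34 ± 0.22); the start of Tap1 lies 215 bases from its own. Psmd7, the gene with the largest RNA change, had 53.5 and 48.2 against 48.4 and 39.7 CPM (0.21 ± 0.20, adjusted p = 0.44).

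The lowest marks were at Psmb11 (2.96 to 3.93 CPM), Psme2b (1.47 to 3.11 CPM) and Psma8 (6.87 to 9.46 CPM). In all, 23 of the 50 have the start of another gene within 3 kb, and how far a window reaches on each side of a start is not given in the sources used here, so a window may hold the mark of more than 1 gene. Of the promoters printed above, that of Psmb5 begins at the deposited start used for the mark, Psmb9's lies 8 bases from it, Psmb8's 414 and Psme1's 2254. Normalised sums over the 50 windows were 3374 and 2929 CPM in KO and 2737 and 2207 CPM in WT. Splits over all windows moved with scaling: 1644 higher and 2380 lower became 1305 and 3309 with library size alone, which called 2 proteasome genes, and 1999 and 1993 with RLE scaling, which called 0. Leaving out KO 2 or WT 1 left 1 library in that group, and some proteasome genes were then called. With the replicate number as a block, 43 were called higher and 1 lower, beside 11035 higher (69.1%) and 174 lower among the 15960 strongly marked windows and 24.4% and 16.5% among all windows.

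In single-cell sums of LSK cells, no proteasome gene was called among 49 tested, against 0.00748% of all genes (1 of 13374; edgeR quasi-likelihood test). At an unadjusted p under 0.05, 5 were higher and none lower, beside 1173 higher and 759 lower of all 13374 genes. DESeq2 called 2, beside 298 of all genes. Psmd7 stood at 677 and 622 CPM in the libraries labelled KO and 321 and 405 CPM in those labelled WT, with no overlap (log2 0.84 ± 0.17, adjusted p = 0.24). Psmd12 stood at 329 and 383 against 209 and 260 CPM (0.60 ± 0.17, adjusted p = 0.27), Psmg3 at 128 and 129 against 77.0 and 93.2 CPM (0.59 ± 0.15, adjusted p = 0.27) and Psmd5 at 97.1 and 88.5 against 65.4 and 66.3 CPM (0.50 ± 0.13, adjusted p = 0.27). These genes were picked for the largest rises in bulk LSK RNA, and in these sums genotype cannot be told apart from sex. Across the 49 genes the bulk and single-cell changes had Pearson's r of 0.70 and Spearman's rho of 0.51, and 0.61 and 0.48 over the 48 without Psmd7; genes are not independent replicates.

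**Figure D5:**
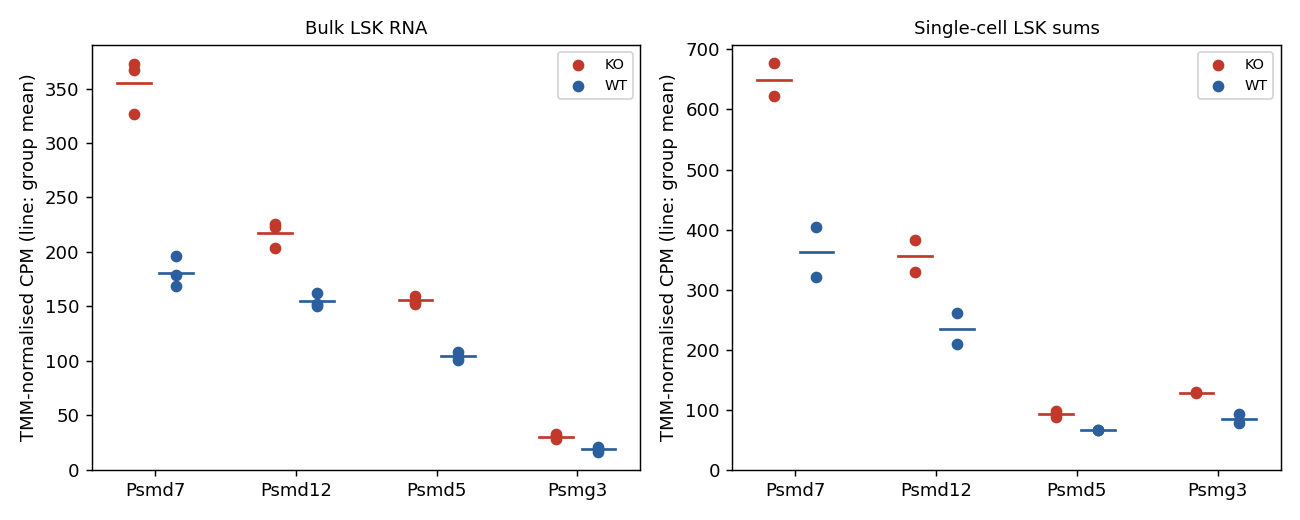
TMM-normalised CPM of Psmd7, Psmd12, Psmd5 and Psmg3 in bulk LSK RNA (3 KO, 3 WT libraries) and in single-cell sums (2 labelled KO, 2 labelled WT), 1 point a library with a line at the group mean. The 4 genes were picked for the largest rises in bulk, where their KO points lie above their WT points. In the single-cell sums none of the 4 passed the test.

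The 5 immunoproteasome genes had a median change of 0.081 in these sums, against 0.034 over the 44 others, and none was called. Psmb8 stood at 324 and 382 CPM against 316 and 352 CPM (0.08 ± 0.15), Psme1 at 401 and 481 against 379 and 429 CPM (0.13 ± 0.16), Psme2 at 353 and 411 against 366 and 419 CPM (-0.04 ± 0.16) and Psmb9 at 65.8 and 95.2 against 89.6 and 104 CPM (-0.26 ± 0.22). These 4 overlapped between genotypes. Psmb10 at 223 and 210 against 154 and 185 CPM did not (0.35 ± 0.15, adjusted p = 0.38). The Psmb8 to Psmb5 ratio was 2.41 and 1.72 against 1.95 and 1.89, and the Psmb9 to Psmb6 ratio 0.146 and 0.156 against 0.188 and 0.155 (log2 differences 0.085 and -0.17; two-sided exact permutation p = 1 and 0.667). The Psmb10 to Psmb7 ratio was 5.13 and 5.76 against 4.00 and 7.42, with the WT range around the KO range. In bulk LSK RNA that ratio was far lower, at 0.368 to 0.432, and the reason for the gap was not tested. In the single-cell sums all 3 ratios overlapped between the genotypes. The 5 genes took 10.8% and 11.1% of proteasome gene counts in the libraries labelled KO and 11.01% and 11.03% in those labelled WT.

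Cells with counts of at least 3 markers of a list were also summed, and levels were scaled to the summed counts of those cells in each library. Cells with stem, granulocyte or erythroid markers numbered at least 40 in every library, and a cell could enter more than 1 group. These cells were deeper, with library medians of 2126 to 6095 counts a cell, against 1479 to 2135 in all kept cells. Depth also differed between libraries of a group, as with medians of 3014 and 6095 for cells with stem markers labelled KO. Among cells with stem markers (45 to 221 a library) the 5 immunoproteasome genes took 9.96% to 12.9% of proteasome gene counts, and among cells with granulocyte markers (175 to 896) 10.5% to 11.2%. Among cells with erythroid markers (43 to 315) the share was lower, at 7.37% and 6.97% in the libraries labelled KO and 5.13% and 4.87% in those labelled WT. Psmb8 in those cells was at 117 and 181 CPM (132 and 46 counts) against 72.3 and 87.2 CPM (only 76 and 16 counts). These levels were below that of 286 to 422 CPM in cells with stem markers. Psmd7 in cells with erythroid markers was at 966 and 895 CPM against 456 and 687 CPM, and in cells with stem markers at 581 and 649 against 316 and 444 CPM. With 2 libraries a group these values had no test.

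The share of cells with at least 1 count moved with depth (medians of 1479 and 2135 counts a cell in KO, 2099 and 1560 in WT). Psmb8 was counted in 39.1% (95% exact binomial interval 37.8% to 40.5%) and 54.2% (52.6% to 55.8%) of cells labelled KO and 44.7% and 44.5% of those labelled WT. Thinned to 1000 counts a cell, with shallower cells left out (847 and 685 labelled KO, 268 and 752 labelled WT), the shares were 25.2% and 31.7% against 25.9% and 29.3%, so the genotypes overlapped. Psmd7 was counted in 59.8% and 66.7% of cells against 43.6% and 47.6%, and after thinning in 44.5% and 42.8% against 23.6% and 32.6%. Its shares in the libraries labelled KO lay above those labelled WT at both depths. The intervals cover counting error only.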

How the data were processed

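Per the labels, the authors deposited raw counts of aligned reads per gene (bulk, INPUT and J2), of CUT&RUN reads in 3 kb windows at transcript starts, and per gene and cell. The submitters' processing notes name Seurat 3.0, Picard 2.9.0, edgeR, bedtools, STAR 2.5.3a, Bowtie2 2.2.9 and build GRCm38.p5; the counting tool and strand setting are not given in the sources used here. Proteasome genes and the other lists were chosen with earlier results of these data known. Counts were tested with edgeR 4.0.16 (R 4.3.3): filterByExpr, TMM, quasi-likelihood F test, Benjamini-Hochberg over all features, called under an adjusted p of 0.05. A single fit held all 8 liver libraries. CPM are TMM-normalised unless stated; SE is that of the log2 fold change. Single cells needed 500 counts and under 20% mitochondrial counts (15678 of 15707 kept) and were summed per library; no doublet caller was run. DESeq2 1.42.0, other scalings, no filter, each library left out and replicate blocks were alternatives. The fits of bulk, H3K4me3, INPUT and single-cell sums were tested on simulated data. Changed features were drawn only from those above a threshold of mean count, so the shares recovered do not cover genes of low counts. A log2 change of 1 was recovered there for 92%, 90%, 8% and 20% of the changed features, in that order. For a log2 change of 3 the shares were 100%, 100%, 89% and 98%. Named genes were the immunoproteasome genes, the subunits they replace, up to 8 called genes a direction and genes of no complex; others were named after their values were seen. Replicates of every group differed beyond sampling noise. The labels call them biological replicates but name no animals, so p-values measure the spread between these samples. Some genes of the partner lists are not reported here, so 2 of the lists are described by named genes without counts.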

Additional observations from a re-analysis of the deposited data

How the results depend on the processing

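Counts of proteasome genes called depended on the settings as follows. With library size alone, 9 rose and 2 fell in bulk LSK RNA, where 17.1% of all genes rose and 28.8% fell. With that scaling, 2 were higher for H3K4me3 (2.56% of all windows) and 4 in J2 over INPUT in WT (19.85% of all genes). Without the low-count filter, and with DESeq2, 2 rose in INPUT; DESeq2 called 2 in the single-cell sums. Leaving out 1 library gave 10 to 30 higher and 0 to 1 lower in bulk, 0 to 5 higher for H3K4me3, 0 to 2 higher in INPUT, and in J2 over INPUT 1 to 3 higher and 16 to 26 lower in WT and 21 to 35 lower in KO; the fewest came without J2 WT 2 in WT (16) and without J2 KO 1 or J2 KO 2 in KO (21 each). Without INPUT WT 2, 2 rose in INPUT, and without J2 WT 1, J2 WT 2 or INPUT WT 1, 1 was higher in J2 over INPUT in WT. The cause of these changes was not tested. The Psmb9 to Psmb6 log2 ratio in bulk ran from -0.10 to 0.071 as a library was left out, and so changed sign.

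The replicate block by number called 23 higher in bulk (24.0% of all genes), 43 higher and 1 lower for H3K4me3 (24.4% and 16.5% of all windows; of the 15960 with an average log2 CPM of 4 or more, 69.1% were higher and 174 lower), and left INPUT at 1 and the single-cell sums at 0. Same-numbered bulk libraries deviated with correlations of 0.23, 0.096 and 0.044, and only 2 pairs exist for H3K4me3 (0.30) and the single-cell sums (0.26), so the numbers were not taken as pairs. Blocking by liver gave 25 lower in WT and 31 in KO for J2 over INPUT, and among the immunoproteasome genes it changed the 3 calls given with the results.

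Some single genes changed sign or reached 0, and none passed the test in the alternative where it did so. Psmb10 for J2 over INPUT in WT did pass in 1 of 13 alternatives. Psme1 for H3K4me3 was at -0.021 when the fit was restricted to windows whose average log2 CPM reached 4. As 1 library was left out, J2 over INPUT in WT ran from 0 to 5.88 for Psmb9 and from -5.15 to 0.25 for Psmb10. The difference between the J2 enrichments ran from -1.14 to 1.66 for Psmb8, -3.22 to 2.19 for Psmb10, -0.46 to 0.21 for Psme1 and -0.79 to 0.46 for Psme2. The single-cell change ran from -0.043 to 0.19 for Psmb8, -0.0092 to 0.25 for Psme1 and -0.15 to 0.065 for Psme2. Of the constitutive catalytic genes, over all alternatives INPUT ran from -0.44 to 0.92 for Psmb5, -0.79 to 0.48 for Psmb6 and -0.66 to 0.096 for Psmb7, the single-cell change from -0.38 to 0.35 for Psmb5 and -0.34 to 0.15 for Psmb6, and the difference between the J2 enrichments from -1.24 to 0.023 for Psmb6.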
